A study of Mus musculus with 6 samples.

Results

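Rab GTPases were followed in dendritic cells of wild-type mouse spleen, sorted into 3 populations that were each measured on 2 Affymetrix arrays. The genes were chosen by name, as every probe set with exactly 1 gene symbol made of Rab, a number and at most a short suffix. This gave 62 of 28853 probe sets, for 59 of the 19938 genes tested. Interacting proteins such as Rabgap1 or Rab11fip1 are not among them. The first population was cDC1, sorted as CD24+. The others were cDC2, sorted as CD24+CD172a+ or as CD24-CD172a+. The labels name the last by CD172a alone, and the series text adds that it lacks CD24. All the cells were splenic and wild type, and no treatment is named. Strain, age, sex, the number of mice and whether animals were pooled are not given in the sources used here. Nothing says that the 2 arrays of a population came from separate mice, so p-values measure only the spread between these arrays, which may be technical.

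Rab proteins are small GTPases that mark the membranes of the cell. Bound to GTP and anchored by a lipid tail, each recruits effectors such as tethers and motors to its own compartment, from the endoplasmic reticulum and Golgi to endosomes, phagosomes and secretory granules. Guanine nucleotide exchange factors (GEFs) switch them on and GTPase-activating proteins (GAPs) switch them off. In dendritic cells, which take up antigen and show it to T cells, these compartments are where antigen is degraded, loaded and carried to the surface. Conventional type 1 cells (cDC1) excel at cross-presentation, in which antigen from outside the cell is shown to CD8 T cells, while type 2 cells (cDC2) mainly prime CD4 T cells.

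The arrays' median intensity ran from 29.5 to 30.6, and replicate arrays correlated at 0.992 to 0.993 across genes, which are not independent replicates. All 8 cDC1 markers were called lower in CD24+CD172a+ cDC2 than in cDC1, and 7 of 8 in CD24-CD172a+ cDC2. Of all genes, 6.52% and 8.91% were called lower. The summed intensity of the 8 markers was 7999 to 8785 in cDC1 arrays, 527 to 605 in CD24+CD172a+ cDC2 and 658 to 673 in CD24-CD172a+ cDC2. Of 8 cDC2 markers, 6 and 7 were higher in these populations than in cDC1, and 1, Clec12a, was lower. The shares of all genes called higher were 7.11% and 6.83%. In all that follows, a level is the log2 of the RMA intensity, an arbitrary brightness unit, with its SD (n = 2 arrays). A difference is on the log2 scale with its standard error (SE) from limma, a linear model that shares variance across genes. A gene is called when its p, adjusted over all 19938 genes, is under 0.05. The number of arrays limits the precision. Levels are compared only within a gene, since probe sets differ in brightness.

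Rab genes were called between cDC1 and each cDC2 population, in both directions and more often lower than higher in cDC2. In CD24+CD172a+ cDC2, 17 of 59 Rab genes (28.8%) were called against cDC1, 5 higher and 12 lower. Of all genes tested, 13.6% were called in that comparison, 7.11% higher and 6.52% lower. Against cDC1 the CD24-CD172a+ population had 15 of 59 (25.4%) called, 5 higher and 10 lower, beside 15.7% of all genes, 6.83% higher and 8.91% lower. With cyclic loess normalisation the same number was called but split into 7 higher and 8 lower, and with a second quantile normalisation 7 were higher and 9 lower. The split of all genes moved too, from 1361 higher and 1776 lower to 1560 and 1472 with cyclic loess. With the second quantile normalisation it was 1470 and 1568. Both comparisons share the cDC1 arrays. Differences of at least 2-fold were called for 2 Rab genes in the first, beside 4.65% of all genes, and for 3 in the second, beside 4.8%. The median difference of the 59 genes was -0.08 in the first and -0.05 in the second, where that of all genes was -0.03 and 0.00. The population with the highest mean was cDC1 for 30 genes, CD24-CD172a+ cDC2 for 16 and CD24+CD172a+ cDC2 for 13. In whole-population RNA, fewer cells with a transcript and less of it per cell cannot be told apart.

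On all 6 arrays, 39 of 59 Rab genes (66.1%) lay above the array median, beside 46.1% of all genes. The shares of all genes set beside those of Rab genes thus cover more dim genes. In an alternative setting, genes with a mean level below the median over all genes were left out. Then 38 Rab genes were tested, and larger shares were called of Rab genes and of all genes kept. Of these, 16 (42.1%) were called in CD24+CD172a+ cDC2 against cDC1, beside 29.2% of the genes kept, and 19 in CD24-CD172a+ cDC2, beside 33.5% of the genes kept. At the dim end, Rab15, Rab27b, Rab33a, Rab3b and Rab3c lay below the 25th percentile on all 6 arrays, and none was called in any comparison. Rab23 and Rab42 lay below it on some arrays.

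**Figure D1:**
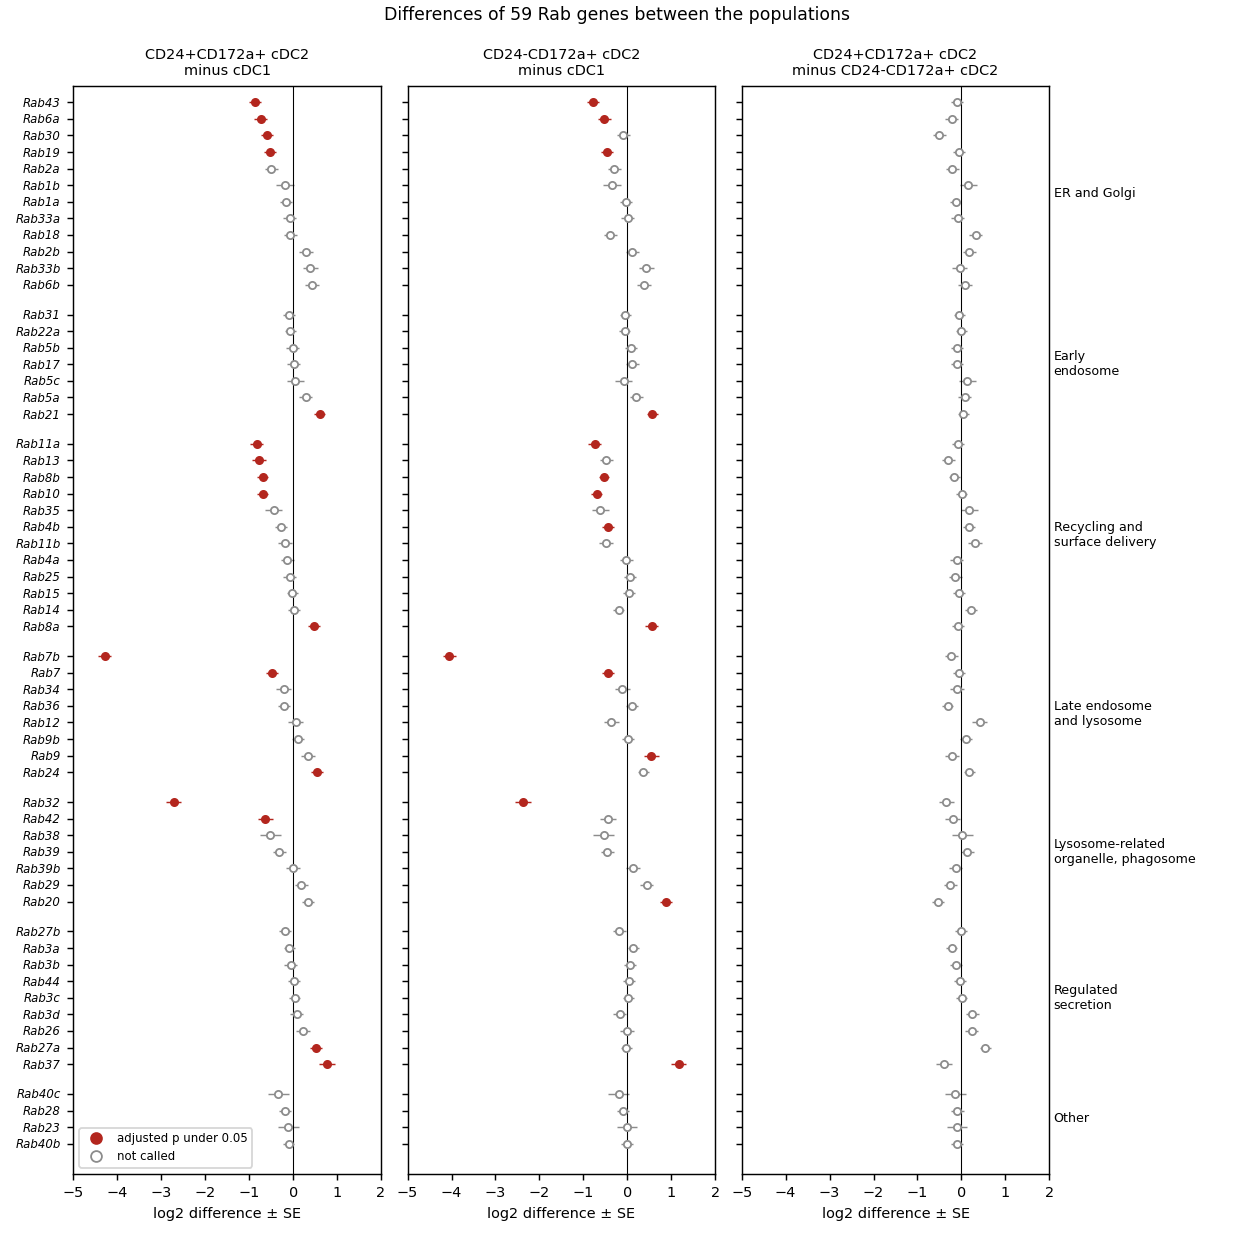
Log2 difference (x axis, with SE bars) of each of 59 Rab genes (rows, grouped by the compartment they mark) in the 3 comparisons, filled red where the adjusted p was under 0.05. Rab7b and Rab32 lie far to the left in both comparisons with cDC1, and no gene is filled between the cDC2 populations.

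Among Rabs of late endosomes and lysosomes, Rab7b had the largest difference from cDC1. Rab7b is known for carrying membrane between late endosomes and the Golgi and for sending Toll-like receptors to lysosomes. Its log2 level (probe set 10349661) was 9.42 and 9.71 on the cDC1 arrays, 5.26 and 5.30 in CD24+CD172a+ cDC2, and 5.63 and 5.40 in CD24-CD172a+ cDC2. Both cDC1 arrays lay above all 4 cDC2 arrays, which were themselves above the array medians. Rab7b was 19.5-fold lower in CD24+CD172a+ cDC2 (difference -4.29 ± 0.15, adjusted p = 2.61e-08) and 16.6-fold lower in CD24-CD172a+ cDC2 (-4.05 ± 0.15, adjusted p = 3.39e-08) than in cDC1. Leaving out 1 array kept the differences within -4.43 to -4.14 and -4.20 to -3.91.

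Its close relative Rab7, which drives the fusion of late endosomes with lysosomes, differed by far less. Rab7 measured 11.03 and 11.13 in cDC1, 10.49 and 10.70 in CD24+CD172a+ cDC2, and 10.66 and 10.64 in CD24-CD172a+ cDC2. The cDC1 arrays were again the highest. It fell by 0.49 ± 0.13 in CD24+CD172a+ cDC2 (adjusted p = 0.0341) and by 0.44 ± 0.13 in CD24-CD172a+ cDC2 (adjusted p = 0.04999). Neither call was kept when any compared array was left out, with adjusted p of 0.0541 to 0.223 and 0.130 to 0.220. Rab24, which acts in autophagy, rose by 0.54 ± 0.13 in CD24+CD172a+ cDC2 (adjusted p = 0.0167) and differed by 0.36 ± 0.13 in CD24-CD172a+ cDC2 (adjusted p = 0.0896). Rab9, which returns mannose 6-phosphate receptors from late endosomes to the Golgi, differed by 0.33 ± 0.16 (adjusted p = 0.255) in the former and rose by 0.55 ± 0.16 (adjusted p = 0.043) in the latter. The Rab9 call was lost with a pseudocount of 16, with a floor at the 25th percentile, with only the compared groups fitted and in 3 of 4 fits without a compared array. Rab34, tied to the fusion of phagosomes with lysosomes, was low everywhere, at 4.04 and 4.47 in cDC1, 4.18 and 3.90 in CD24+CD172a+ cDC2 and 4.16 and 4.12 in CD24-CD172a+ cDC2, and its groups overlapped. In both comparisons 3 of the 8 genes of this group (37.5%) were called, 1 higher and 2 lower, beside 13.6% and 15.7% of all genes.

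Among Rabs of lysosome-related organelles and phagosomes, Rab32 was the other large difference. Rab32 helps build melanosomes and acts on phagosomes against bacteria. Its level (probe set 10367822) was 8.81 and 8.86 in cDC1, 6.11 and 6.12 in CD24+CD172a+ cDC2, and 6.18 and 6.74 in CD24-CD172a+ cDC2. The cDC1 arrays stood clear of the others, and the CD24-CD172a+ pair was the most spread. Rab32 was 6.58-fold lower in CD24+CD172a+ cDC2 (-2.72 ± 0.17, adjusted p = 1.99e-06) and 5.18-fold lower in CD24-CD172a+ cDC2 (-2.37 ± 0.17, adjusted p = 5.22e-06). Rab38, its partner in pigment granules, measured 6.25 and 5.55 in cDC1, 5.30 and 5.45 in CD24+CD172a+ cDC2 and 5.65 and 5.07 in CD24-CD172a+ cDC2. The second cDC1 array fell among the cDC2 arrays. Its differences, -0.52 ± 0.24 and -0.54 ± 0.24, were not called (adjusted p = 0.214 and 0.177), but both were called without cDC1 replicate 2, at -0.87 and -0.89 (adjusted p = 0.0468 and 0.0388).

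Rab20, which takes part in phagosome maturation in macrophages, ran the other way. It measured 6.53 and 6.73 in cDC1, 7.05 and 6.90 in CD24+CD172a+ cDC2, and 7.56 and 7.47 in CD24-CD172a+ cDC2, so the 3 populations did not overlap. Rab20 was 1.85-fold higher in CD24-CD172a+ cDC2 than in cDC1 (0.89 ± 0.14, adjusted p = 0.00116). Against cDC1 the CD24+CD172a+ population differed by 0.35 ± 0.14 (adjusted p = 0.143), and against CD24-CD172a+ cDC2 by -0.54 ± 0.14 (adjusted p = 0.0937). Markers of monocytes and macrophages stood lower in CD24+CD172a+ than in CD24-CD172a+ cDC2 too. Of 11 such markers, 7 were called lower there and none higher, beside 0.652% and 0.808% of all genes. None of the 11 was below the 25th percentile on all arrays. Against cDC1, 2 were higher and 4 lower in CD24+CD172a+ cDC2, and 5 higher and 2 lower in CD24-CD172a+ cDC2. Their summed intensity was 1921 to 2276 in CD24+CD172a+ cDC2, 3854 to 4150 in CD24-CD172a+ cDC2 and 4140 to 4199 in cDC1. Most of each sum came from Lyz2, with mean levels of 10.20, 11.29 and 11.61. The part of these markers in the Rab20 values was not tested. Rab39, a Rab of phagosomes, measured 4.64 and 4.63 in cDC1, 4.26 and 4.38 in CD24+CD172a+ cDC2 and 4.04 and 4.33 in CD24-CD172a+ cDC2. It differed from cDC1 by -0.31 ± 0.14 and -0.45 ± 0.14 (adjusted p = 0.207 and 0.0549). The second was called under 5 alternatives (adjusted p = 0.0357 to 0.0457), among them cyclic loess and a fit without CD24-CD172a+ replicate 2. Rab42 fell by 0.63 ± 0.17 in CD24+CD172a+ cDC2 (adjusted p = 0.0349). Both arrays of that population and cDC1 replicate 2 lay below the 25th percentile, and the call was lost with a pseudocount of 16, with a floor at that percentile and in 3 of 4 fits without a compared array.

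**Figure D2:**
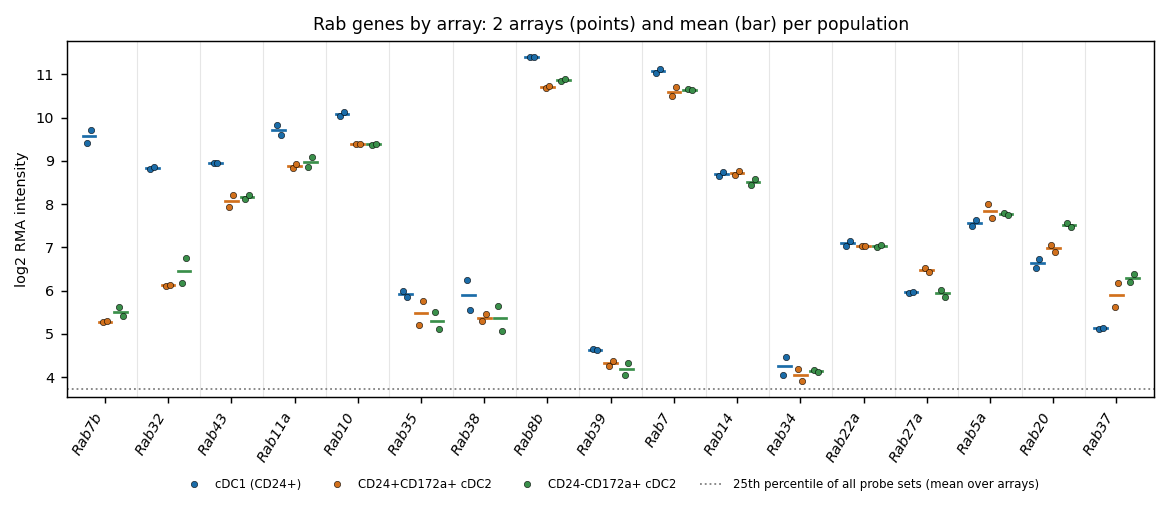
Log2 RMA intensity (y axis) of 17 Rab genes on each array (points) with the mean of each population (bars), ordered from the most negative to the most positive difference of CD24-CD172a+ cDC2 from cDC1. The dotted line is the 25th percentile of all probe sets, and the cDC1 points of Rab7b and Rab32 stand clear above both cDC2 populations.

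Of the 12 Rabs of the endoplasmic reticulum and Golgi, 4 were called lower than in cDC1 in CD24+CD172a+ cDC2, beside 6.52% of all genes. In CD24-CD172a+ cDC2 3 were called lower, beside 8.91%, and in neither was any called higher. Rab43 is a Golgi Rab known for its part in cross-presentation by cDC1. It measured 8.94 and 8.95 in cDC1, 7.93 and 8.21 in CD24+CD172a+ cDC2, and 8.12 and 8.21 in CD24-CD172a+ cDC2. Both cDC1 arrays were above all cDC2 arrays. Rab43 was 1.83-fold lower in CD24+CD172a+ cDC2 (-0.88 ± 0.14, adjusted p = 0.00146) and 1.72-fold lower in CD24-CD172a+ cDC2 (-0.78 ± 0.14, adjusted p = 0.00286). Rab6a, which directs traffic within and out of the Golgi, fell by 0.74 ± 0.15 and 0.52 ± 0.15 (adjusted p = 0.00709 and 0.0401). The second call was lost with cyclic loess, a second quantile normalisation and a floor at the 25th percentile. Mrpl48, which overlaps Rab6a in the RefSeq annotation, differed by -0.36 ± 0.13 and -0.47 ± 0.13 (adjusted p = 0.122 and 0.0374). Whether the Rab6a probes read Mrpl48 transcripts was not tested. Rab19 fell by 0.53 ± 0.14 and 0.47 ± 0.14 (adjusted p = 0.025 and 0.0405). Rab30, another Golgi Rab, fell by 0.59 ± 0.14 in CD24+CD172a+ cDC2 (adjusted p = 0.0185), while its difference in CD24-CD172a+ cDC2 was -0.09 ± 0.14 (adjusted p = 0.776). The other 8, among them Rab1a, Rab1b and Rab2a, which serve the step from the endoplasmic reticulum to the Golgi, were called in neither comparison, with differences of at most 0.50 in size in the first.

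Of the 12 Rabs of recycling endosomes and surface delivery, 5 (41.7%) were called in each comparison with cDC1, 4 lower and 1 higher, beside 13.6% and 15.7% of all genes. Rab11a marks recycling endosomes, which hold a store of MHC class I in dendritic cells. It measured 9.82 and 9.60 in cDC1, 8.84 and 8.93 in CD24+CD172a+ cDC2 and 8.85 and 9.08 in CD24-CD172a+ cDC2, so cDC1 lay above both. It was 1.78-fold and 1.68-fold lower (-0.83 ± 0.14 and -0.75 ± 0.14, adjusted p = 0.00248 and 0.00455). Rab10, which carries receptors and transporters to the plasma membrane, measured 10.04 and 10.12 in cDC1, 9.39 and 9.38 in CD24+CD172a+ cDC2 and 9.36 and 9.40 in CD24-CD172a+ cDC2. The 4 cDC2 arrays lay within a narrow band below cDC1. Rab10 fell by 0.69 ± 0.12 and 0.70 ± 0.12 (adjusted p = 0.00324 and 0.00291).

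The paralogs Rab8a and Rab8b, which serve the route from the Golgi to the surface, differed from cDC1 in opposite directions. Rab8b measured 11.39 and 11.40 in cDC1, 10.67 and 10.74 in CD24+CD172a+ cDC2 and 10.85 and 10.88 in CD24-CD172a+ cDC2. It fell by 0.69 ± 0.12 and 0.53 ± 0.12 (adjusted p = 0.00314 and 0.0141). Rab8a measured 9.04 and 9.16 in cDC1, 9.43 and 9.72 in CD24+CD172a+ cDC2 and 9.66 and 9.64 in CD24-CD172a+ cDC2. It rose by 0.47 ± 0.14 and 0.55 ± 0.14 (adjusted p = 0.0499 and 0.022). For each paralog the cDC1 arrays did not overlap with the cDC2 arrays. The Rab8b call held in all 4 fits without a compared array for CD24+CD172a+ cDC2 but in 1 of 4 for CD24-CD172a+ cDC2, and that of Rab8a in 1 and 0 of 4. For CD24+CD172a+ cDC2 the Rab8a call was also lost with all probe sets tested, a floor at the 25th percentile or only the 2 groups fitted. Whether probes of one paralog read the other was not tested.

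Rab13, of cell junctions and exocytosis, fell by 0.77 ± 0.15 in CD24+CD172a+ cDC2 (adjusted p = 0.00556) and differed by -0.48 ± 0.15 in CD24-CD172a+ cDC2 (adjusted p = 0.0585). Rab4b, of rapid recycling, differed by -0.27 ± 0.14 in the former (adjusted p = 0.267) and fell by 0.45 ± 0.14 in the latter (adjusted p = 0.0489). That call was lost whichever compared array was left out. Rab35, a Rab of fast recycling, measured 5.98 and 5.85 in cDC1, 5.20 and 5.75 in CD24+CD172a+ cDC2 and 5.50 and 5.10 in CD24-CD172a+ cDC2. Its differences, -0.44 ± 0.19 and -0.62 ± 0.19, were not called (adjusted p = 0.203 and 0.0583). The second was called under 7 alternatives. Among them were leaving out genes below the 25th percentile (adjusted p = 0.0469) and below the median (adjusted p = 0.0347). Rab14, which moves cargo between the Golgi and endosomes, measured 8.64 and 8.75 in cDC1, 8.68 and 8.76 in CD24+CD172a+ cDC2 and 8.43 and 8.57 in CD24-CD172a+ cDC2. It was not called (0.02 ± 0.13 and -0.19 ± 0.13, adjusted p = 0.950 and 0.412).

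Of the 7 Rabs of the early endosome, 1 (14.3%) was called in each comparison with cDC1, near the 13.6% and 15.7% of all genes. That gene was Rab21, which moves integrins, and it rose by 0.61 ± 0.13 and 0.57 ± 0.13 (adjusted p = 0.00828 and 0.011). Rab5a, the switch for fusion of early endosomes, measured 7.49 and 7.64 in cDC1, 8.01 and 7.68 in CD24+CD172a+ cDC2 and 7.79 and 7.75 in CD24-CD172a+ cDC2. Every cDC2 array was above the cDC1 arrays, but the differences, 0.28 ± 0.15 and 0.21 ± 0.15, were not called (adjusted p = 0.289 and 0.442). Rab22a, known for bringing MHC class I to antigen-bearing endosomes, measured 7.04 and 7.14 in cDC1, 7.02 and 7.02 in CD24+CD172a+ cDC2 and 6.998 and 7.05 in CD24-CD172a+ cDC2. The CD24-CD172a+ arrays overlapped those of cDC1, and both CD24+CD172a+ arrays lay slightly below cDC1. Differences of Rab22a were -0.07 ± 0.13 and -0.06 ± 0.13 (adjusted p = 0.826 and 0.831). Rab5b, Rab5c, Rab17 and Rab31 were not called either.

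Of the 9 Rabs of regulated secretion, 2 (22.2%) were called in the CD24+CD172a+ population and 1 (11.1%) in the CD24-CD172a+ population, all higher than in cDC1. Of all genes 7.11% and 6.83% were called higher, and these counts are too small to read a direction for the group. Rab37, known for granule exocytosis in mast cells, measured 5.11 and 5.14 in cDC1, 5.61 and 6.19 in CD24+CD172a+ cDC2, and 6.20 and 6.38 in CD24-CD172a+ cDC2. It was 2.24-fold higher in CD24-CD172a+ cDC2 (1.17 ± 0.18, adjusted p = 0.0012) and 1.71-fold higher in CD24+CD172a+ cDC2 (0.77 ± 0.18, adjusted p = 0.0157) than in cDC1. The second value was 0.49 without CD24+CD172a+ replicate 2 (adjusted p = 0.125), and that call was also lost without either cDC1 array (adjusted p = 0.0833 and 0.0706). In the RefSeq annotation Rab37 overlaps Cd300lf, an inhibitory receptor gene of myeloid cells, which was higher by 2.13 ± 0.13 and 2.41 ± 0.13 in the same comparisons (adjusted p = 1.52e-06 and 5.66e-07). Whether the Rab37 probes read its transcripts was not tested.

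Rab27a docks secretory lysosomes and brings the phagocyte oxidase to phagosomes of dendritic cells. It measured 5.94 and 5.97 in cDC1, 6.52 and 6.43 in CD24+CD172a+ cDC2, and 6.01 and 5.86 in CD24-CD172a+ cDC2, so that CD24+CD172a+ cDC2 lay above both other populations. Rab27a rose by 0.52 ± 0.13 against cDC1 (adjusted p = 0.0206), a call lost without any compared array (adjusted p = 0.0714 to 0.126). Against CD24-CD172a+ cDC2 the difference was 0.54 ± 0.13 (adjusted p = 0.0757). Beside it, 2 of 9 markers of plasmacytoid dendritic cells, Tcf4 and Siglech, were higher in CD24+CD172a+ than in CD24-CD172a+ cDC2. So were 2 of 9 of neutrophils, S100a8 and S100a9. None of either list was called lower there, and of all genes 0.808% were called higher and 0.652% lower. Against cDC1, 2 plasmacytoid markers were called higher in CD24+CD172a+ cDC2 and 2, Ccr9 and Pacsin1, were lower. Of neutrophil markers 2 were higher and none lower, beside 7.11% and 6.52% of all genes. The summed intensity of the plasmacytoid list was 792 to 793 in CD24+CD172a+ cDC2, 548 to 551 in CD24-CD172a+ cDC2 and 771 to 801 in cDC1. Its part in the Rab27a values was not tested. Rab3a, Rab3b, Rab3c, Rab3d, Rab26, Rab27b and Rab44 were called in no comparison. Nor were the remaining 4 genes, Rab23, Rab28, Rab40b and Rab40c.

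Between CD24+CD172a+ and CD24-CD172a+ cDC2, 0 of 59 Rab genes were called by limma, beside 1.46% of all genes (0.808% higher, 0.652% lower and 0.406% by at least 2-fold). At an unadjusted p under 0.05 there were 5 of 59, beside 2799 of 19938. The differences ran from -0.54 for Rab20 to 0.54 for Rab27a, and the smallest adjusted p was 0.0757. Rab27a passed when genes below the median were left out (adjusted p = 0.0385) or a pseudocount of 16 was added (adjusted p = 0.0445), and Rab20 in the former setting (adjusted p = 0.0493). The shares called were then 5.26% of 38 Rab genes beside 4.38% of the genes kept, and 1.69% of 59 beside 1.51% of all genes. Limma with an intensity trend and robust variance called 0 Rab genes, beside 2.33% of all genes. For 4 of the genes called in both comparisons with cDC1, the values here were -0.23 ± 0.15 for Rab7b, -0.35 ± 0.17 for Rab32, -0.39 ± 0.18 for Rab37 and -0.09 ± 0.14 for Rab43 (adjusted p = 0.522, 0.408, 0.363 and 0.814). Rab30 differed by -0.50 ± 0.14 (adjusted p = 0.138).

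The calls against cDC1 did not all rest on the same footing. Each was refitted without each of the 4 compared arrays. Rab7b, Rab32, Rab43, Rab10, Rab11a and Rab8b kept the call in all 4 fits for CD24+CD172a+ cDC2. For CD24-CD172a+ cDC2 those that did were Rab7b, Rab32, Rab43, Rab10, Rab20 and Rab37. Rab19, Rab27a and Rab7 kept it in none for the former, and Rab4b, Rab6a, Rab7 and Rab8a in none for the latter. In both comparisons the number of calls fell in every fit without a compared array, for Rab genes and for all genes.

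**Figure D3:**
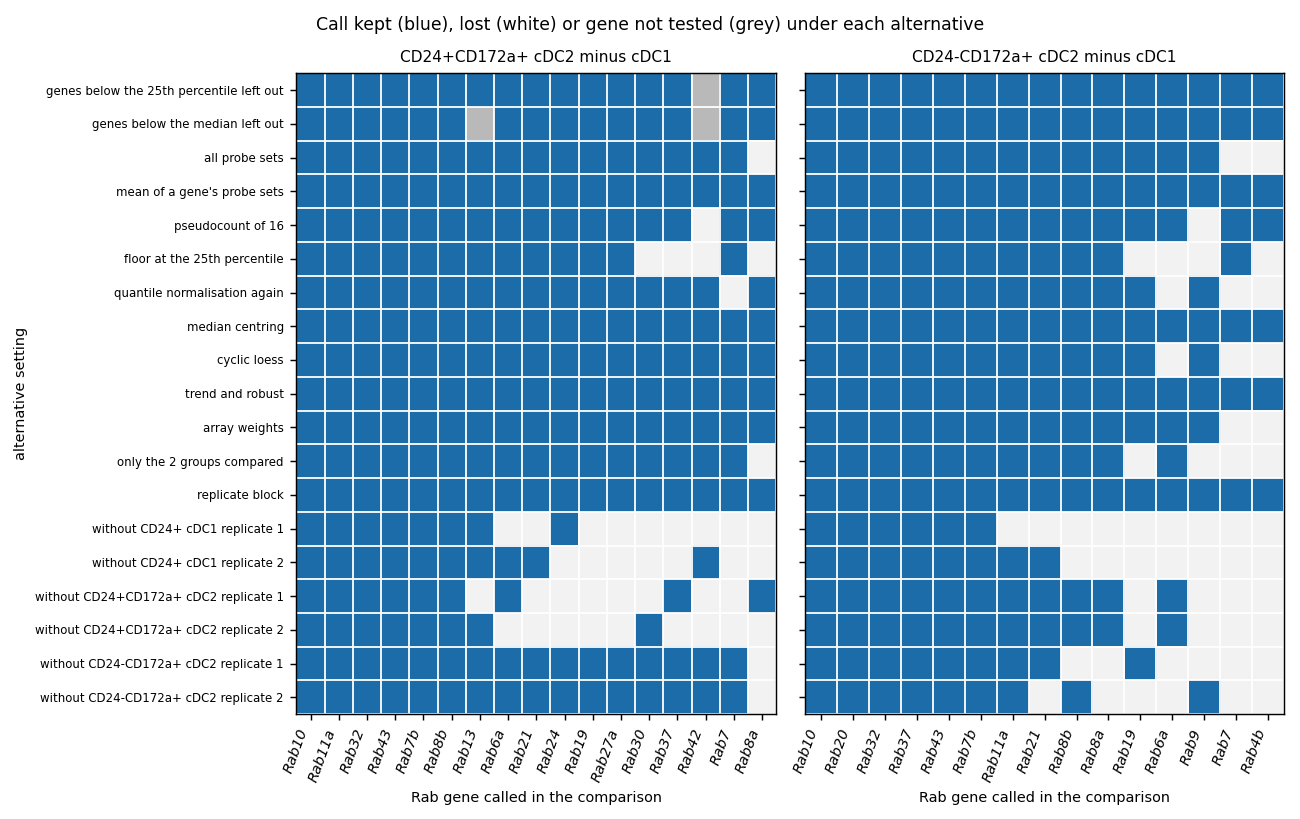
Calls of Rab genes (columns) against cDC1 under each of 13 alternative settings and 6 fits without 1 array (rows), blue where the call was kept. Most losses lie in the rows that leave out an array, and the columns of Rab10, Rab32, Rab43 and Rab7b are blue throughout in both comparisons.

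Other genes of the Rab cycle came from a list of 122 regulators and effectors, of which 115 were measured. Against cDC1, 30 of 115 (26.1%) were called in CD24+CD172a+ cDC2, 17 higher and 13 lower, and 28 (24.3%) in CD24-CD172a+ cDC2, 13 higher and 15 lower. Of all genes, 13.6% and 15.7% were called. With genes below the median left out, 34.4% and 33.3% of 93 regulators and effectors were called. The shares of all genes kept were then 29.2% and 33.5%. In CD24-CD172a+ cDC2 against cDC1, cyclic loess gave 16 of the list higher and 11 lower. Of all genes it gave 1560 higher and 1472 lower, where the main fit gave 1361 and 1776. Between the cDC2 populations limma called 0, beside 1.46% of all genes, with 13 of 115 at an unadjusted p under 0.05 beside 2799 of 19938. Among all genes, 7.11% were called higher and 6.52% lower in CD24+CD172a+ cDC2 than in cDC1. In CD24-CD172a+ cDC2 these shares were 6.83% and 8.91%. Of 31 GEFs, 12 were called higher, 2 lower and 17 not at all in CD24+CD172a+ cDC2. In CD24-CD172a+ cDC2 8 GEFs were higher and 4 lower. Of 47 effectors, 2 were called higher and 8 lower in the first comparison, and 2 and 7 in the second, so 37 and 38 were not called. Of 30 GAPs, 3 were higher and 3 lower in the first comparison, and 2 and 3 in the second. The GAPs called made up 20% and 16.7%, beside 13.6% and 15.7% of all genes.

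Rin2, a GEF for Rab5, showed the largest difference of the list. It measured 4.85 and 5.12 in cDC1, 7.79 and 7.64 in CD24+CD172a+ cDC2 and 7.46 and 7.17 in CD24-CD172a+ cDC2, with no overlap between cDC1 and cDC2, and rose by 2.74 ± 0.15 and 2.33 ± 0.15 (adjusted p = 7.84e-07 and 2.46e-06). Dennd3, a GEF for Rab12, rose by 2.03 ± 0.19 and 1.69 ± 0.19. Tbc1d4, a GAP for Rab10, rose by 1.63 ± 0.13 and 1.72 ± 0.13, and Dennd4a, a GEF for Rab10, by 0.90 ± 0.13 and 0.75 ± 0.13, while Rab10 itself fell. Usp6nl, a GAP that acts on Rab5 and Rab43, rose by 1.28 ± 0.14 and 1.48 ± 0.14, while Rab43 fell and Rab5a was not called. Rab3ip, a GEF for Rab8, rose by 0.55 ± 0.15 and 0.97 ± 0.15, beside the rise of Rab8a and the fall of Rab8b. Ric1, part of the GEF for Rab6, rose by 0.64 ± 0.13 and 1.05 ± 0.13, while Rab6a fell. The motor Myo5a, which Rab27a and Rab11a recruit, rose by 1.27 ± 0.13 and 1.03 ± 0.13. Adjusted p for these genes ran up to 0.0388.

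The largest decreases were in Inpp5b, a phosphoinositide phosphatase that binds several Rabs (-1.79 ± 0.17 and -1.84 ± 0.17), and Erc1, an effector of Rab6 (-1.79 ± 0.24 and -1.67 ± 0.24). The GAP Rabgap1l followed, with -1.56 ± 0.14 and -1.42 ± 0.14, and then Dennd1b, a GEF for Rab35, with -1.30 ± 0.15 in both. All 4 were called in both comparisons, with adjusted p of at most 0.000845. Effectors of Rab5 differed among themselves. Eea1, the tether of early endosomes, fell by 0.78 ± 0.14 and 0.69 ± 0.14, and Rabep1, which binds Rab5 and Rab4, by 0.67 ± 0.14 and 0.65 ± 0.14. Appl1 differed by 0.14 ± 0.14 and -0.12 ± 0.14 (adjusted p = 0.662 and 0.695), and Ankfy1 by -0.11 ± 0.13 and -0.35 ± 0.13 (adjusted p = 0.703 and 0.111). Among effectors of Rab11, Rab11fip4 fell by 0.83 ± 0.16 in both comparisons, and Rab11fip1 fell by 0.82 ± 0.13 in CD24+CD172a+ cDC2 and differed by -0.40 ± 0.13 in the other (adjusted p = 0.0693). Of the pair that forms the GEF of Rab32 and Rab38, Hps1 rose by 0.61 ± 0.16 in CD24+CD172a+ cDC2 (adjusted p = 0.0286) and differed by 0.44 ± 0.16 in the other (adjusted p = 0.0983), and Hps4 differed by -0.21 ± 0.13 and -0.22 ± 0.13 (adjusted p = 0.421 and 0.353).

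**Figure D4:**
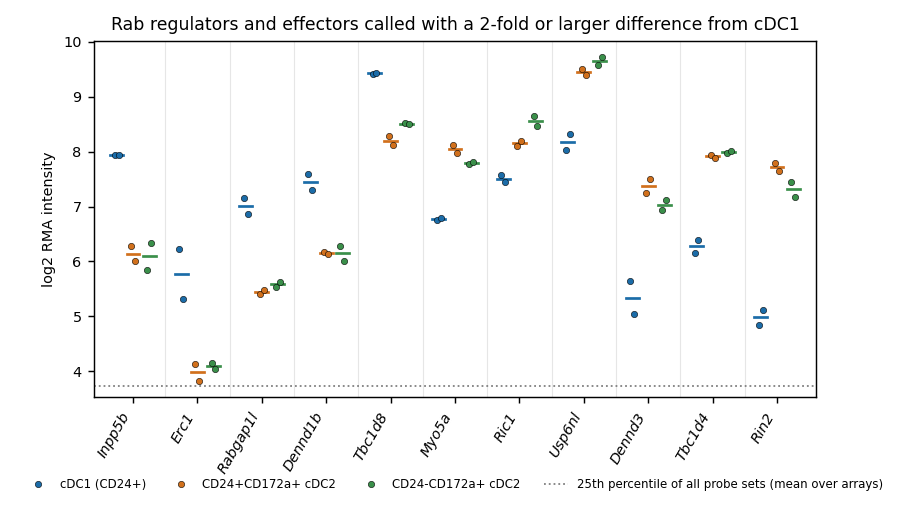
Log2 RMA intensity (y axis) on each array (points) and mean per population (bars) of the regulators and effectors of Rab GTPases that were called with at least a 2-fold difference from cDC1. From Inpp5b to Tbc1d8 both cDC1 arrays lie above the cDC2 arrays, and from Myo5a to Rin2 they lie below them.

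Sequences upstream of the start sites were set beside these differences. RefSeq promoters of assembly GRCm38.p6 (250 bases before to 50 after a start) were found for 48 of the 59 Rab genes, in 60 windows, and not for Rab7b or Rab37. Each was searched on both strands for 3 motifs. These were the E-box CACGTG, which factors of the MITF and TFEB kind bind at lysosomal genes, the AP-1 site TGANTCA, and the ETS-IRF composite element GGAANNGAAA. The E-box lay in 6 of 48 genes (12.5%), beside 8.09% of 27025 genes in the table. Among genes called higher in a cDC2 population than in cDC1, it lay in 4 of 6, namely Rab20, Rab21, Rab24 and Rab27a. Among those called lower it lay in 0 of 11, and among the rest in 2 of 31. These counts are small, and among Rab20, Rab21, Rab24 and Rab27a only Rab20 kept its call in every fit without a compared array. A match is a description of letters, not a bound site. AP-1 and ETS-IRF matches lay in 3 and 1 of the 48 (8.97% and 3.16% of all genes), and in none of the called genes. The 250 bases before the start are shown for 3 of the 4 with an E-box, which is in capitals, and for Rab32, the called gene with the largest decrease among those with a promoter, which has none. That of Rab24 lies past its start. In Rab20 and Rab21 the E-box begins 46 and 30 bases before the start, and in Rab27a, which has a further start without one, 246 bases before it.
Rab20, chr8:11478641-11478890, strand -: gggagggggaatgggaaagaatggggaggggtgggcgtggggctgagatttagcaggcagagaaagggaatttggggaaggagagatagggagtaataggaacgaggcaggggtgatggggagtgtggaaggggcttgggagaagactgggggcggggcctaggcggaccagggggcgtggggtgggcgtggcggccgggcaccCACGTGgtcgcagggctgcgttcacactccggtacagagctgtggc
Rab21, chr10:115315592-115315841, strand -: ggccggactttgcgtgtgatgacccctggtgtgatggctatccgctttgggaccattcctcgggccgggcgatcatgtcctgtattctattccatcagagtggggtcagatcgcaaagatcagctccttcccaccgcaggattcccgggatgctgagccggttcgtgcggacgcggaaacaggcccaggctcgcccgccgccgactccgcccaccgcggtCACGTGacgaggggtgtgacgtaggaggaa
Rab27a, chr9:73063898-73064147, strand +: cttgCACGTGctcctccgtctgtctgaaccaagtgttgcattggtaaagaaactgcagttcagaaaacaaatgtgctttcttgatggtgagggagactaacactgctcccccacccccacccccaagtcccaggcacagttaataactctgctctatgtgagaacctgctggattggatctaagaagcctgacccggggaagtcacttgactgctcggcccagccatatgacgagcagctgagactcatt
Rab32, chr10:10558208-10558457, strand -: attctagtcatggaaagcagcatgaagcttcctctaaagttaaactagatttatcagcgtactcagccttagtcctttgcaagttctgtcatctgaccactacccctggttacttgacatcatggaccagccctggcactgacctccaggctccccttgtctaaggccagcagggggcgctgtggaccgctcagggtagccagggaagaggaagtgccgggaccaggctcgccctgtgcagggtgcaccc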

How the data were processed

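RNA from 3 sorted splenic populations was measured on 6 Affymetrix arrays, 2 per population. Per the labels' protocols, biotinylated cDNA was made from column-extracted total RNA with WT Pico reagents. The authors' RMA values came, per the submitters' processing notes, from Affymetrix Expression Console (background correction, quantile normalisation, median polish). Versions and genome build are not given in the sources used here. Array maxima of 11459 to 12095 show that these deposited intensities are linear, so log2 was taken. RMA forces arrays to a common distribution, so a shift shared by most genes would not show. Scanner files were not used here, so background and scan batches were not examined.

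Of 28853 probe sets, 21789 with 1 symbol were used, 1621 had several and 5443 had none in the platform annotation. Gene IDs of 21698 matched the RefSeq table, which changed 0 symbols. The probe set with the highest mean was kept per gene (19938 genes). Rab11b, Rab2a and Rab5b have a second probe set, and neither probe set of these was called. Limma 3.58.1 (R 4.3.3, lmFit and eBayes, all 6 arrays, 3 residual and 7.31 prior degrees of freedom) tested the 3 pairwise differences, adjusted by Benjamini-Hochberg over all genes. The procedure was tested on simulated data. Figures used matplotlib 3.10.9.

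Rab genes and lists were chosen with earlier results of these data known. Values are given array by array for Rab genes called with at least a 2-fold difference and for 16 Rab genes tied to antigen presentation or phagosomes, and for regulators up to 4 called genes per direction with the largest differences. Regulators of the Rab genes described, Eea1, Rabep1, Rab11fip1, Rab11fip4, Hps1, Hps4, Rab3ip, Ric1, Myo5a, Dennd4a, Appl1 and Ankfy1, were added after their values were seen. So were the neighbouring genes and the arrays of Rab8a, shown beside Rab8b. Marker lists of 10 cell types were also read. B, T, NK and erythroid cell lists held no call between the cDC2 populations. Of these, 1, 0, 0 and 0 genes were lower and 2, 0, 1 and 0 higher in CD24+CD172a+ cDC2 than in cDC1, and 1, 0, 0 and 0 lower and 1, 1, 1 and 0 higher in CD24-CD172a+ cDC2. Of 5 markers of all dendritic cells, 2 were higher in CD24+CD172a+ cDC2 than in cDC1, and in CD24-CD172a+ cDC2 1 was higher (Itgax) and 1 lower (Flt3). The shares of all genes called in these comparisons were 13.6% and 15.7%, and 1.46% between the cDC2 populations. Replicate numbers were not taken to pair the samples.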

Additional observations from a re-analysis of the deposited data

How the results depend on the processing

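Of 963 values under the alternatives of the 17 Rab genes that the rule gives array by array, which Rab8a is not among, 918 kept their direction where called and their side of the threshold, 28 lost a call, 17 gained one and none reversed. Leaving out genes below the median gave 2 Rab calls between the cDC2 populations and a pseudocount of 16 gave 1, where the main analysis gave 0. These were 5.26% of 38 Rab genes beside 4.38% of the genes kept, and 1.69% of 59 beside 1.51% of all genes. Over all genes in that comparison, 291 calls became 437 without genes below the median, 8 with a floor at the 25th percentile, 464 with an intensity trend and robust variance, and 187 with only the 2 groups fitted. The cause was not tested. Without 1 array, the counts there ran from 20 to 187 for all genes and stayed at 0 for Rab genes and for regulators. In CD24+CD172a+ cDC2 against cDC1 they ran from 9 to 16 for Rab genes, 17 to 31 for regulators and effectors, and 1781 to 2769 for all genes. In CD24-CD172a+ cDC2 against cDC1 they ran from 7 to 13, 17 to 26 and 1922 to 2839. Such a fit leaves 1 array in a group, which is assumed to vary like the other groups. Deviations of same-numbered arrays from their group means correlated at 0.084, 0.024 and 0.084, so the numbers were not taken to pair the samples. With 2 arrays a group, these values cannot exclude a pairing. With the replicate number as a block, 0, 17 and 17 Rab genes were called in the 3 comparisons, where 0, 17 and 15 were called without it. Over all genes, 411, 2918 and 3323 were called with the block, and 291, 2718 and 3137 without it. Signal over background was not examined, which limits what can be said of Rab genes near the 25th percentile.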

Other observations

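Genes next to the Rab genes in the RefSeq annotation were read for values, chosen after they were seen. Ctse, cathepsin E, lies beside Rab7b and was lower than in cDC1 too, with differences of -1.21 ± 0.18 in the CD24+CD172a+ and -1.34 ± 0.18 in the CD24-CD172a+ population (limma, adjusted p = 0.00115 and 0.000538). Slc26a9, on the other side of Rab7b, was not called (-0.23 and 0.01, adjusted p = 0.368 and 0.980). Isy1, a splicing factor gene beside Rab43, went the other way from Rab43, with 0.57 ± 0.13 and 0.60 ± 0.13 (adjusted p = 0.0137 and 0.00929). Dennd4a lies beside Rab11a, and it rose where Rab11a fell. Rpn1, a subunit of the oligosaccharyltransferase beside Rab7, fell by 1.38 and 1.56 (adjusted p = 4.64e-05 and 1.87e-05).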
